A study of Mus musculus with 25 samples.

Results

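The immunoglobulin loci of mouse hold the segments from which B cells assemble their antibody chains. All peaks of 25 deposited ChIP-seq lists that fell in 3 windows of the mm10 build were taken: the heavy chain locus Igh (chr12:113258000-116010000), the kappa light chain locus Igk (chr6:67555000-70727000) and the lambda light chain locus Igl (chr16:19026000-19261000). Overlapping or touching peaks were merged, which gave 214 regions out of 180127 in the whole genome. Igh held 164 of them in 2.75 Mb, Igk 46 in 3.17 Mb and Igl 4 in 0.235 Mb. The median region was 402 bp wide, with a range of 185 to 11999 bp, and 33 regions came from a single list.

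The study asked how TCF-1, a transcription factor that Tcf7 encodes, takes part in genome folding as T cells develop, and used 2 mouse cell lines. Scid.adh, here called DN3, is a line from a mouse thymic lymphoma with features of early thymocytes at the DN3 stage. Its cells carried either a TCF1 knockout (KO) or an empty vector (EV). NIH-3T3 is a fibroblast line, and its cells were either induced to express TCF1 or left untreated. Chromatin had been fixed with 1% formaldehyde and precipitated with antibodies to CTCF, SMC1, NIPBL, H3K27ac or TCF1. DN3 cells had 2 lists per condition and antibody, with TCF1 antibody lists from EV cells only. Fibroblasts had 2 CTCF lists per condition, 1 SMC1 list per condition and 1 TCF1 antibody list from induced cells. The labels give neither strain nor whether the knockout cells were a clone, and do not say how TCF1 was induced. They also do not say that numbered replicates were separate cultures, so a p-value measures only the spread between lists.

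In the heavy chain locus the constant, J and D segments lie at one end, and many V segments follow over most of the window. V, D and J segments are joined by the RAG recombinase at a recombination signal that flanks each segment, and a V segment carries its signal on the end that faces the D segments. CTCF is a zinc finger protein that stops the cohesin ring as it extrudes chromatin loops. SMC1 is a subunit of that ring, NIPBL loads and drives it, and H3K27ac is an acetylation found at active promoters and enhancers. Precursors of T cells rearrange their T cell receptor genes with the same recombinase, and they are known to join some Igh D and J segments but few V segments.

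No genome sequence was used here, so bases can be shown only where a peak covered a promoter in the RefSeq table of GRCm38.p6 (250 bases before to 50 after a gene's start). Of the 12 promoters of that table in the windows, 3 lay under peaks, all of predicted genes in the Igh window with no role to give. They are printed because they are the only stretches of these loci with both a peak and a sequence. In the first pair, capitals mark a match to the core of the CTCF motif without its last base, searched on both strands: CC, 3 bases of any kind, AGG, 1 base of any kind and GG. In the other promoter they mark ACAAAG, the core of the TCF motif, also searched on both strands. All 3 are on the plus strand, at chr12:115703580-115703879 for Gm40900, chr12:115262401-115262700 for Gm30948 and chr12:114764158-114764457 for Gm40899.

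Gm40900: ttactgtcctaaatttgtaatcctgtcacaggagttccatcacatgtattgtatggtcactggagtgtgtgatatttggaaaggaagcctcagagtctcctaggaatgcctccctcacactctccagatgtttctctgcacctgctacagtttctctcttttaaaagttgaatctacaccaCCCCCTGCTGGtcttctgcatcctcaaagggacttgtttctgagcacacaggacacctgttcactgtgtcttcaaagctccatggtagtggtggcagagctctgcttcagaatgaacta
Gm30948: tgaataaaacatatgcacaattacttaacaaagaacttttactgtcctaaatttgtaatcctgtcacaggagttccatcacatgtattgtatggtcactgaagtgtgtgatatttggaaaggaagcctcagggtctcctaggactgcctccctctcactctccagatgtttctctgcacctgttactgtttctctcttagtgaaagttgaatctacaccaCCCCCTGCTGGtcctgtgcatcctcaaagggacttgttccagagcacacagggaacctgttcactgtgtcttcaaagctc
Gm40899: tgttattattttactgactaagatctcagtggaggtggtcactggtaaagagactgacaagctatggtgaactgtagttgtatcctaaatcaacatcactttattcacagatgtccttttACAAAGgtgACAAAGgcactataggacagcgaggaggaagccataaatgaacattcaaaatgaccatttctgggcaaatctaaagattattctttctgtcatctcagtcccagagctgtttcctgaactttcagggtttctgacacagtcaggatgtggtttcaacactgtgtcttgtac

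The Gm40900 promoter lay under a CTCF peak in both KO lists (285 and 334 bp wide) and in EV list 1 (229 bp), and under no fibroblast peak. Its motif match, on the minus strand at bases 182 to 192, was 40.0 and 20.5 bp from the midpoints of the KO peaks and 18.0 bp from that of the EV peak. The Gm30948 promoter lay under a CTCF peak of KO list 1 alone (257 bp), and its match at bases 221 to 231 was 15 bp from that midpoint. Laid over each other with the matches aligned, the pair were identical at 181 of 262 bases (69.1%), with a longest shared run of 62 bases. How the authors' mapping treated reads of such copies was not examined. The Gm40899 promoter lay under H3K27ac and SMC1 peaks in all 4 lists of each antibody and under no TCF1 antibody peak, with matches starting at bases 121 and 130. The CTCF core occurred in 9.33% of the 32851 promoters of the table, the same core with a closing C in 3.43%, and ACAAAG in 18.7%. Neither CTCF promoter had the closing C. A match is a description of letters, and the choice of the shorter CTCF core was made after the sequences were seen.

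The lists differed in length, and a region missing from a list was only not called there. CTCF lists held 38369 to 68306 peaks, SMC1 lists 70438 to 105033, H3K27ac lists 36544 to 42180 and NIPBL lists 9206 to 23951, while read totals are unknown. Of 10 T cell genes, 10 had an H3K27ac peak within 10 kb in all 4 DN3 lists, against 1 of 10 B cell genes, 1 of 10 fibroblast genes and 50.7% of all protein-coding genes. In fibroblasts, 10 of 10 fibroblast genes had SMC1 peaks in both lists, against 67.6% of protein-coding genes. So did 7 of 10 T cell genes and 3 of 10 B cell genes. In DN3 cells 7 of 10 fibroblast genes had SMC1 in all 4 lists, so SMC1 near these genes told the lines apart poorly. The knockout cannot be seen in peaks, since H3K27ac covered 25463 and 27255 bp of Tcf7 in KO lists, against 25877 and 26543 bp in EV lists.

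The Igh window carried CTCF at a higher density than the genome in DN3 cells and at a lower one in fibroblasts. A relative density was computed for each list, as peaks per Mb in the window over peaks per Mb of the genome in that list. For CTCF in Igh it was 1.78 and 1.94 in DN3 KO lists, 1.70 and 1.74 in DN3 EV lists, 0.406 and 0.473 in TCF1 induced fibroblasts, and 0.349 and 0.394 in untreated fibroblasts. Every DN3 list stood above the genome's density of 1, and every fibroblast list stood below it. The means were 1.79 ± 0.106 in DN3 and 0.406 ± 0.0514 in fibroblasts (SD, n = 4 lists each), a difference of 1.39. An exact 2-sided permutation test over the lists gave p = 0.0286, the smallest that 70 splits allow, and 0.0286 after Benjamini-Hochberg adjustment over Igh, Igk, Igl and all windows together.

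Light chain loci were poorer in CTCF than the genome in both lines, and the relative densities of the lines still did not overlap. In Igk the relative CTCF density was 0.459 ± 0.0617 in DN3 and 0.234 ± 0.0559 in fibroblasts (n = 4 lists each), a difference of 0.225 with an exact permutation p of 0.0286. When peaks narrower than their list's median were dropped, that difference shrank to 0.0962 with an exact permutation p of 0.114. In Igl, with 3 regions in each line, the relative density was 0.576 ± 0.0482 in DN3 and 0.309 ± 0.0339 in fibroblasts (exact permutation p = 0.0286). This rests on few peaks, with 3 and 3 in KO lists, 2 and 3 in EV lists, 2 and 2 in induced and 1 and 1 in untreated fibroblasts. The peak numbers of the lines thus overlapped, and only division by list length separated them. SMC1 in Igh reached 1.22 and 1.25 in KO lists and 0.950 and 1.17 in EV lists, against 0.0702 in induced and 0.118 in untreated fibroblasts. The SMC1 means differed by 1.05, with an exact permutation p of 0.0667 that is the smallest 4 against 2 lists allow. Each side is a single cell line, so line, strain and handling cannot be told apart in these differences. How well reads of either line mapped to the haplotype of the mm10 assembly was not examined.

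**Figure D1:**
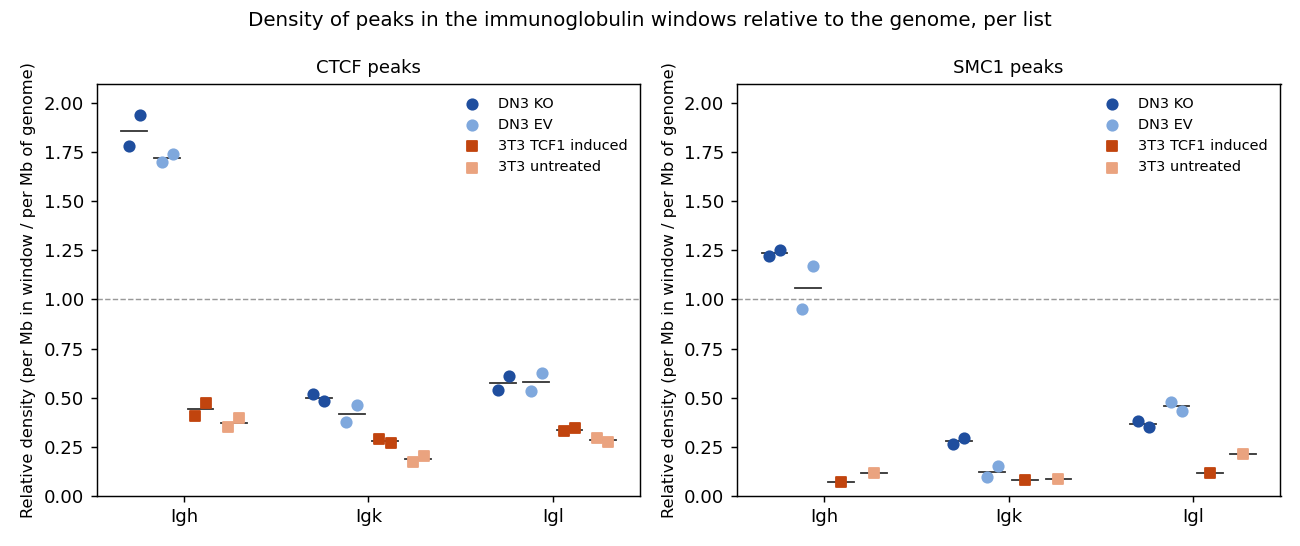
Relative density of CTCF (left) and SMC1 (right) peaks in the Igh, Igk and Igl windows, as peaks per Mb in the window over peaks per Mb of the genome, with 1 point per list and a short line at each group's mean. DN3 lists of CTCF in Igh lie between 1.70 and 1.94, above the dashed line at 1, and all fibroblast lists lie at or below 0.473.

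Many Igh CTCF regions were called in DN3 cells alone. Of 127 Igh CTCF regions merged over both lines, 42 (33.1%) were in all 4 DN3 lists and in no fibroblast list, against 2.36% of CTCF regions genome-wide. None in any window was in all 4 fibroblast lists and no DN3 list, where the genome had 3.21%. Of the 62 fibroblast CTCF regions in the windows, 59 (95.2%) were also in a DN3 list, against 68.6% genome-wide. The remaining 3 were each in a single fibroblast list, near Ighv1-68, Ighv1-77 and Gm35545. The count of 42 was 35 at equal list length and 12 above the median width of each list.

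**Figure D2:**
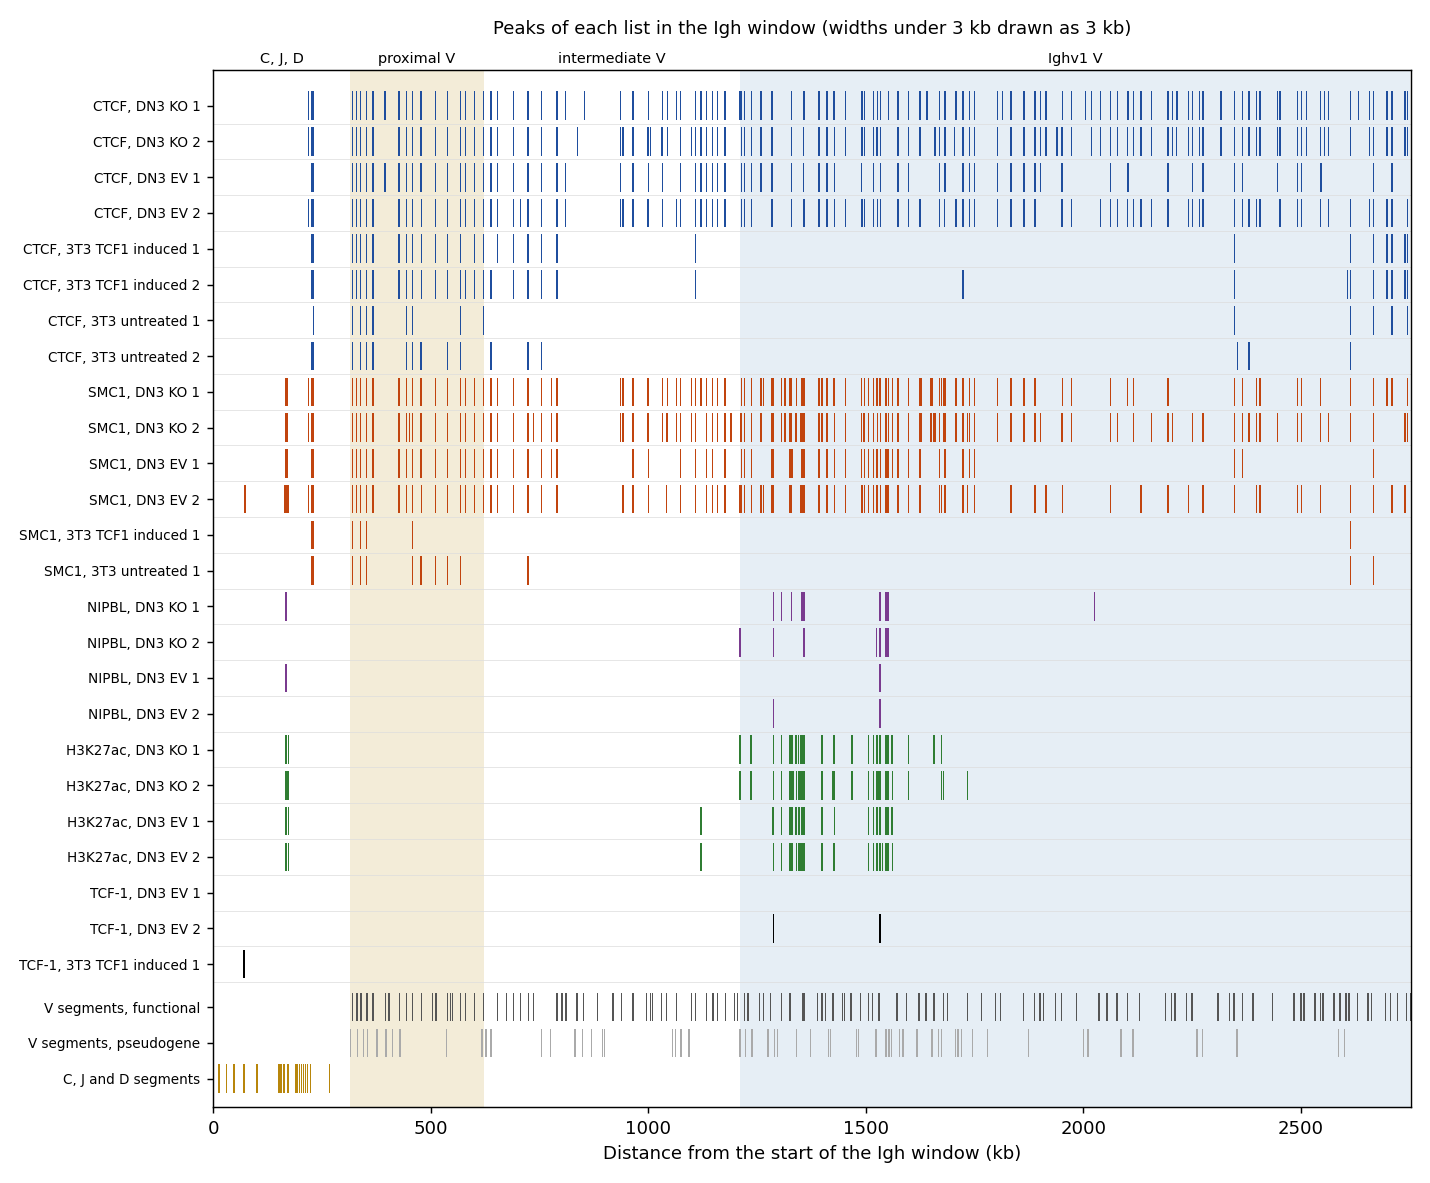
Peaks of each list along the Igh window, by distance from its start in kb, with 1 row per list and annotated segments in the bottom rows; peaks narrower than 3 kb are drawn as 3 kb. CTCF and SMC1 rows of DN3 cells reach along the V region, with a gap of 597 kb in the first SMC1 row of EV cells, fibroblast CTCF rows are densest in the proximal V stretch, and H3K27ac rows only in part of the Ighv1 stretch and near the J segments, besides 1 place of the intermediate stretch in EV lists.

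To describe spacing, the 184 V segments of Igh were split into 3 stretches along the chromosome, a split made after the peaks were seen. The proximal stretch ran from Ighv5-1 to Ighv2-9 (306 kb, 32 V segments), the intermediate one from Ighv5-19 to Ighv8-2 (590 kb, 42 V segments) and the Ighv1 stretch from Ighv1-2 to Ighv1-86 (1541 kb, 110 V segments). Ighv5 and Ighv2 are the families nearest to the D segments, and Ighv1 is the large family of the far end. The proximal stretch held 16 and 15 CTCF peaks in KO lists, 16 and 15 in EV lists, 14 and 15 in induced fibroblasts, and 8 and 9 in untreated fibroblasts. The Ighv1 stretch held 76 and 71 in KO lists, 39 and 59 in EV lists, 7 and 9 in induced fibroblasts, and 5 and 3 in untreated fibroblasts. In the proximal stretch KO and EV lists were alike and induced fibroblasts came close to them. In the Ighv1 stretch both KO lists lay above both EV lists, and all fibroblast lists lay far below.

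Median distances between neighbouring CTCF midpoints followed the same division. In the proximal stretch the mean of the list medians was 18.7 ± 0.785 kb in DN3 and 18.9 ± 0.599 kb in fibroblasts (SD, n = 4 lists each). In the Ighv1 stretch it was 22.9 ± 5.55 kb in DN3 and 59.6 ± 47.5 kb in fibroblasts. Over all Igh V segments it was 21.5 ± 3.85 kb in DN3 and 33.9 ± 9.33 kb in fibroblasts, while V segments themselves lay a median of 11.9 kb apart. SMC1 over the same segments had 17.6 ± 3.17 kb in DN3 lists, against 62.2 kb in the induced and 32.1 kb in the untreated fibroblast list. The widest CTCF gap among Igh V segments was 83.9 and 98.9 kb in KO lists and 127 kb in both EV lists. In fibroblasts it was 1239 and 623 kb in induced cells and 1726 and 1600 kb in untreated cells, so a large part of the locus had no called CTCF peak there.

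In the proximal stretch CTCF lay on the V segments themselves. All 15 regions held by every DN3 list overlapped a V segment, and their midpoints were a median of 51.0 bp from it, at most 135 bp. Of these midpoints 11 were on the side that faces the D segments, where the recombination signal lies, 4 were inside the segment and 0 on the far side. The covered segments were 15 of the 20 annotated as functional and 0 of the 12 annotated as pseudogenes. Ighv2-4, functional, had CTCF in 2 DN3 lists, and the functional Ighv5-9, Ighv5-12-4, Gm7003 and Ighv2-7 had it in none. All 15 covered segments also had SMC1 in every DN3 list.

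The intermediate stretch was similar in kind, with 13 of 17 regions of every DN3 list over a V segment and a median offset of 59.5 bp. Covered there were 9 of 29 functional segments, among them Ighv4-1, Ighv11-1 and Ighv12-3, and 3 of 13 pseudogenes. In the Ighv1 stretch CTCF stood beside the segments instead. Of its 36 regions in every DN3 list, 3 overlapped a V segment, and 33 had their midpoint on the side away from the D segments. Over all 36 the midpoints lay a median of 2475 bp from the nearest V segment. Over the whole locus, CTCF of every DN3 list covered 25 of 121 functional V segments and 4 of 63 pseudogenes. By family, such a region lay within 1 kb of 7 of 11 Ighv2, 8 of 21 Ighv5, 4 of 7 Ighv6 and 3 of 4 Ighv7 segments, of 11 of 92 Ighv1 segments, and of none of the Ighv3, Ighv9, Ighv13 and Ighv14 segments.

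The offsets in the Ighv1 family fell into blocks along the chromosome. Between Ighv1-2 and Ighv1-15 the 5 regions of every DN3 list had a median midpoint distance of 3536 bp. Between Ighv1-16 and Ighv1-47 it was 2511 bp, with 8 of 11 regions at 2000 to 3000 bp. Between Ighv1-48 and Ighv1-74 it was 935 bp, with 10 of 14 at 700 to 1500 bp. Between Ighv1-75 and Ighv1-86 it was 3627 bp over only 2 regions, near the value of the first block. On the side away from the D segments were 4 of 5 midpoints of the first block, 11 of 11 of the second, 14 of 14 of the third and 2 of 2 of the last. The V segments of a family are copies of one another with their flanks, so neighbouring regions are not independent, and the blocks were drawn after the offsets were seen.

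**Figure D3:**
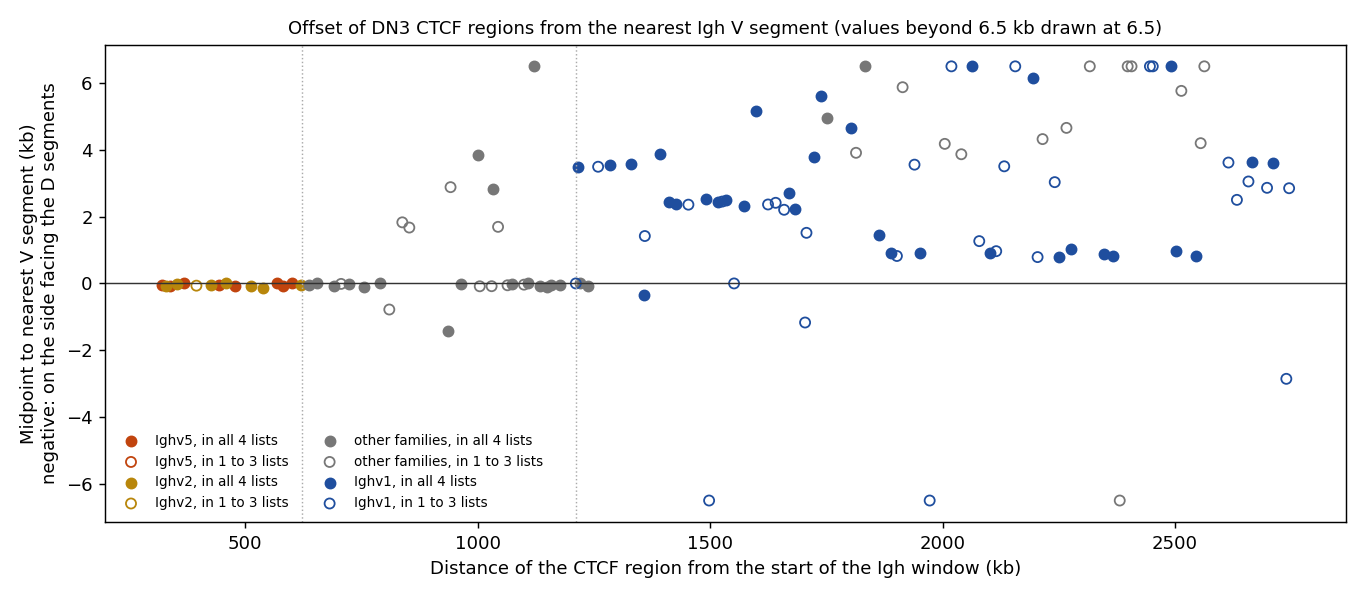
Offset in kb of the midpoint of each DN3 CTCF region of the 3 V stretches from the nearest Igh V segment (y axis; negative on the side facing the D segments) against distance from the start of the Igh window in kb (x axis); filled points are regions in all 4 lists, open points in 1 to 3 lists, and dotted lines separate the stretches. Filled points of the proximal stretch lie within 135 bp of 0. Filled Ighv1 points form bands with medians of 3536, 2511, 935 and 3627 bp along the chromosome, the last from 2 regions.

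CTCF sites held by all 8 CTCF lists, across lines and conditions, numbered 16 of 169 (9.47%), against 30.0% of CTCF regions genome-wide. Igh had 8, Igk 7 and Igl 1. In Igh 7 of the 8 lay on V segments, all functional and all proximal, namely Ighv5-2, Ighv5-4, Ighv2-3, Ighv5-6, Ighv5-12, Ighv2-6 and Ighv5-15. At Ighv5-2, the first functional V segment, the peak was 668 and 609 bp wide in KO lists, 725 and 771 bp in EV lists, 369 and 447 bp in induced fibroblasts, and 309 and 305 bp in untreated fibroblasts. It was thus wider in each DN3 list than in each fibroblast list. SMC1 accompanied 14 of the 16 in every DN3 list, 13 in both fibroblast lists and 11 in every list, with Ighv5-6 and Ighv5-12 lacking it in both fibroblast lists. Leaving out any single list kept all 16, as it must for sites that every list holds. Equal list length kept 11 and the median width of each list kept 2.

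The other Igh site lay 1336 bp from Adam6b, a sperm membrane protein gene that lies among the annotated D segments. Its CTCF peak was 455 and 575 bp wide in KO lists, 423 and 598 bp in EV lists, 516 and 629 bp in induced fibroblasts, and 429 and 418 bp in untreated fibroblasts. The neighbouring site, 2736 bp from Ighd1-1, was in all DN3 lists and both induced lists (409 and 400 bp) but in only untreated list 2 (291 bp). The intergenic control region IGCR1, which restrains the joining of V segments, is known to hold a pair of CTCF sites beside Ighd1-1. A site 1332 bp from Ighd2-3 had CTCF in both KO lists and EV list 2 and in no fibroblast list.

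In Igk no CTCF region of every DN3 list came within 1 kb of any of the 162 V segments, and none overlapped one in any list. The 18 such regions had a median midpoint distance of 9368 bp from the nearest V segment. The median gap between CTCF midpoints was 63.9 ± 4.34 kb in DN3 and 135 ± 108 kb in fibroblasts (n = 4 lists each), while Igk V segments lay a median of 17.3 kb apart. Of the 38 Igk CTCF regions all were in a DN3 list and 24 were in a fibroblast list as well, so Igk had no region of fibroblasts alone. Both lines held a pair of sites between Igkv3-1 and the J segments, the interval known for the Cer and Sis elements that guide kappa recombination. At chr6:70709255-70711138 the CTCF peak was 784 and 672 bp wide in KO lists, 313 and 666 bp in EV lists, 1798 and 1884 bp in induced fibroblasts, and 1722 and 1638 bp in untreated fibroblasts. Here the fibroblast peaks were the wider ones, the reverse of Ighv5-2. At the second site, within chr6:70712923-70714662, each DN3 list had 2 CTCF peaks and each fibroblast list a single peak of 1519 to 1634 bp.

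**Figure D4:**
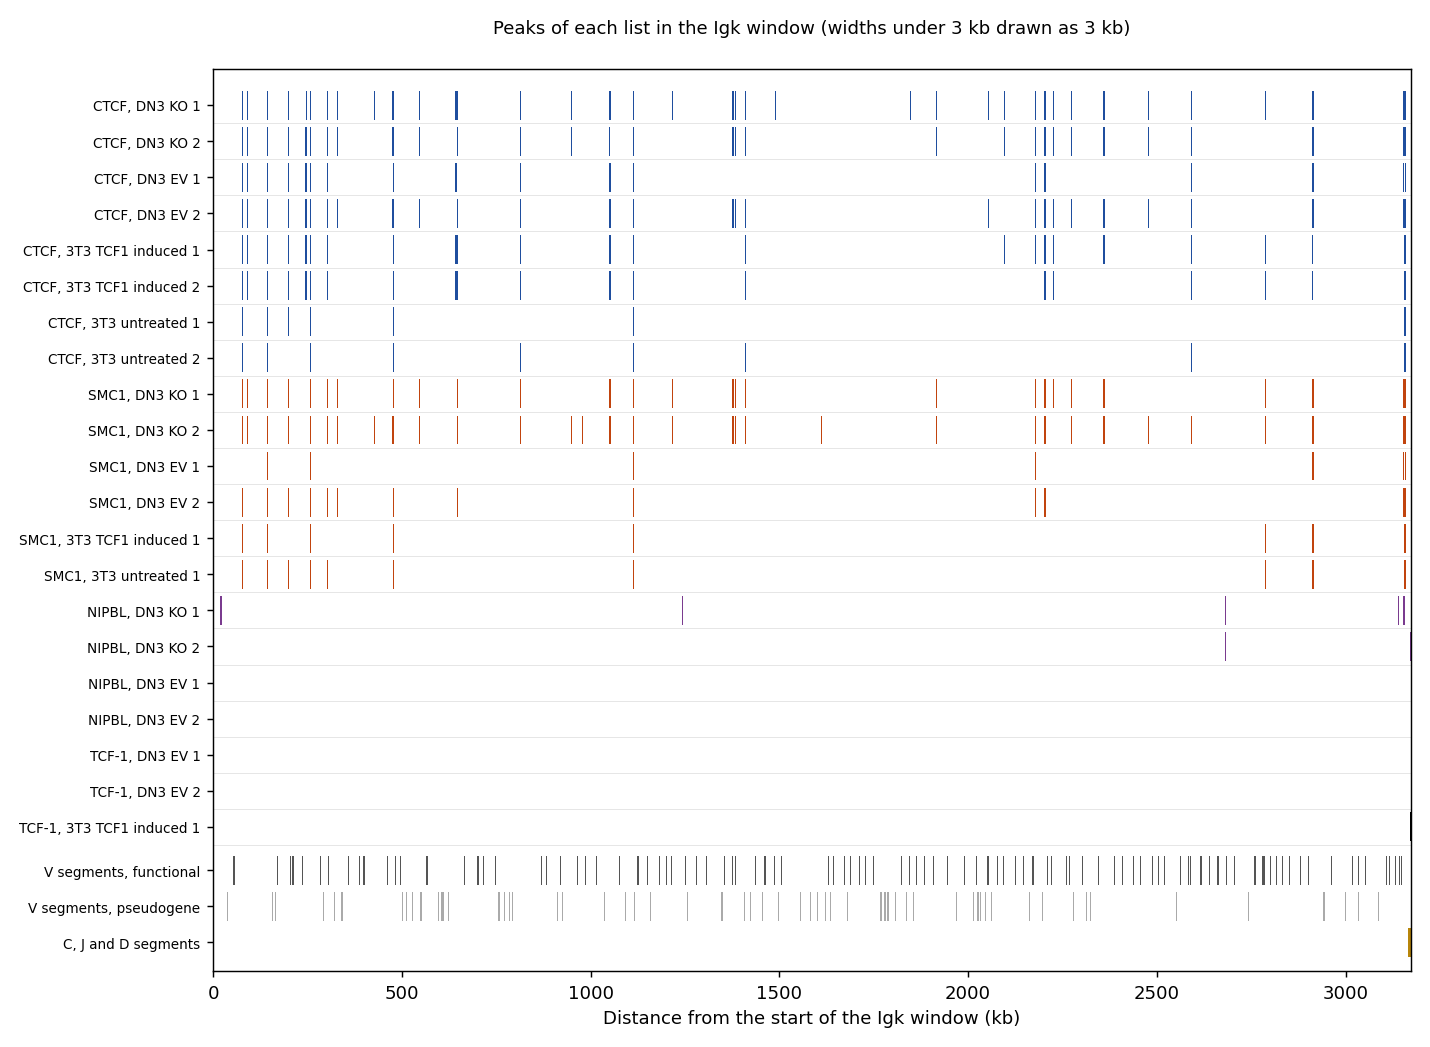
Peaks of each list along the Igk window, by distance from its start in kb, with V, C and J segments in the bottom rows; peaks narrower than 3 kb are drawn as 3 kb and H3K27ac rows are left out. SMC1 rows of KO cells hold 28 and 34 peaks, those of EV cells 8 and 14, and no CTCF peak lies on a V segment.

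H3K27ac lists came from DN3 cells, and their peaks in the windows lay almost all in Igh. Of 32 acetylated regions 31 were in Igh, and 18 were in all 4 lists. At the J and constant end, the region chr12:113422679-113429121 reached from the edge of Ighm, the gene of the IgM constant region, over Ighj4 and into Ighj3. H3K27ac peaks there were 4979 and 5778 bp wide in KO lists and 5650 and 5225 bp in EV lists. The authors' deposited −log10 q-values of these peaks were 13.5 and 10.9 in KO lists and 14.0 and 16.3 in EV lists. In a second region, over Ighj1 and Ighd4-1, the H3K27ac peak was 762 and 1183 bp in KO lists and 1235 and 1558 bp in EV lists. The enhancer Eμ is known to lie between the J segments and Ighm. SMC1 peaks were found in the Ighm region in all 4 DN3 lists, and it held no CTCF peak and no fibroblast peak.

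The other 16 regions acetylated in every list fell in a stretch of 276 kb, chr12:114545062-114820618, from Ighv10-4 to Ighv1-30. Its ends are those of the first and last such region, so it was chosen by these values. H3K27ac covered 46.6 and 41.3 kb of it in KO lists and 39.6 and 38.3 kb in EV lists, which is 16.9 and 15% in KO lists and 14.4 and 13.9% in EV lists. No fibroblast list of any antibody had a peak in it. It held 28 V segments, 15 of them functional, and 10 V segments of Igh were covered by H3K27ac in every list: Ighv15-2, Ighv1-9, Ighv1-11, Ighv1-12, Ighv1-15, Ighv1-23 and Ighv1-26 are functional, and Ighv1-10, Ighv1-27 and Ighv1-28 are pseudogenes. Of the 16 regions, 15 met an SMC1 peak of some list and 11 of every list, while 7 met a CTCF peak of some list and 8 a NIPBL peak. The SMC1 shares were near those of the genome and the CTCF share was lower, while no genome share was taken for NIPBL. Of all 18 Igh regions acetylated in every list, 88.9% met SMC1 of a KO list and 77.8% of an EV list, against 84.2% and 81.5% genome-wide. CTCF of a DN3 list was met by 38.9%, against 49.5% genome-wide, and CTCF of a fibroblast list by 0 of the 18, against 43.0% genome-wide.

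Of SMC1 regions of both lists in Igh, 18.4% in KO cells and 14.1% in EV cells met no CTCF peak of that condition, against 32.8% in KO and 29.6% in EV cells genome-wide. Among Igh regions merged over all antibodies, 30 held SMC1 and no CTCF peak, 14 of them acetylated in some list and 14 over a V segment. Such merging can join an SMC1 peak to a separate CTCF peak through a wide H3K27ac peak. With DN3 SMC1 peaks merged alone, 26 of 90 SMC1 regions in the Ighv1 stretch met no DN3 CTCF, 13 of them over a V segment. In the Ighv1 stretch 32 SMC1 regions were in every DN3 list, of which 26 met DN3 CTCF and 6 did not, and these 6 were all acetylated in every H3K27ac list. Of SMC1 regions in every DN3 list, with or without CTCF, 23.8% in Igh and 43.8% genome-wide had H3K27ac in both KO lists. The genome share for those without CTCF was not computed, so the 6 have no matched background. In the proximal stretch all 15 SMC1 regions of every DN3 list met CTCF and a V segment. At Ighv1-26 all 5 antibodies had peaks. Its H3K27ac peak was 5397 and 5128 bp wide in KO lists and 4588 and 5449 bp in EV lists, and its CTCF peak was 685 and 738 bp in KO lists and 651 and 836 bp in EV lists. It was the only region in the windows with NIPBL in all 4 lists, at authors' −log10 q-values of 7.31 and 3.96 in KO lists and 1.97 and 4.03 in EV lists.

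**Figure D5:**
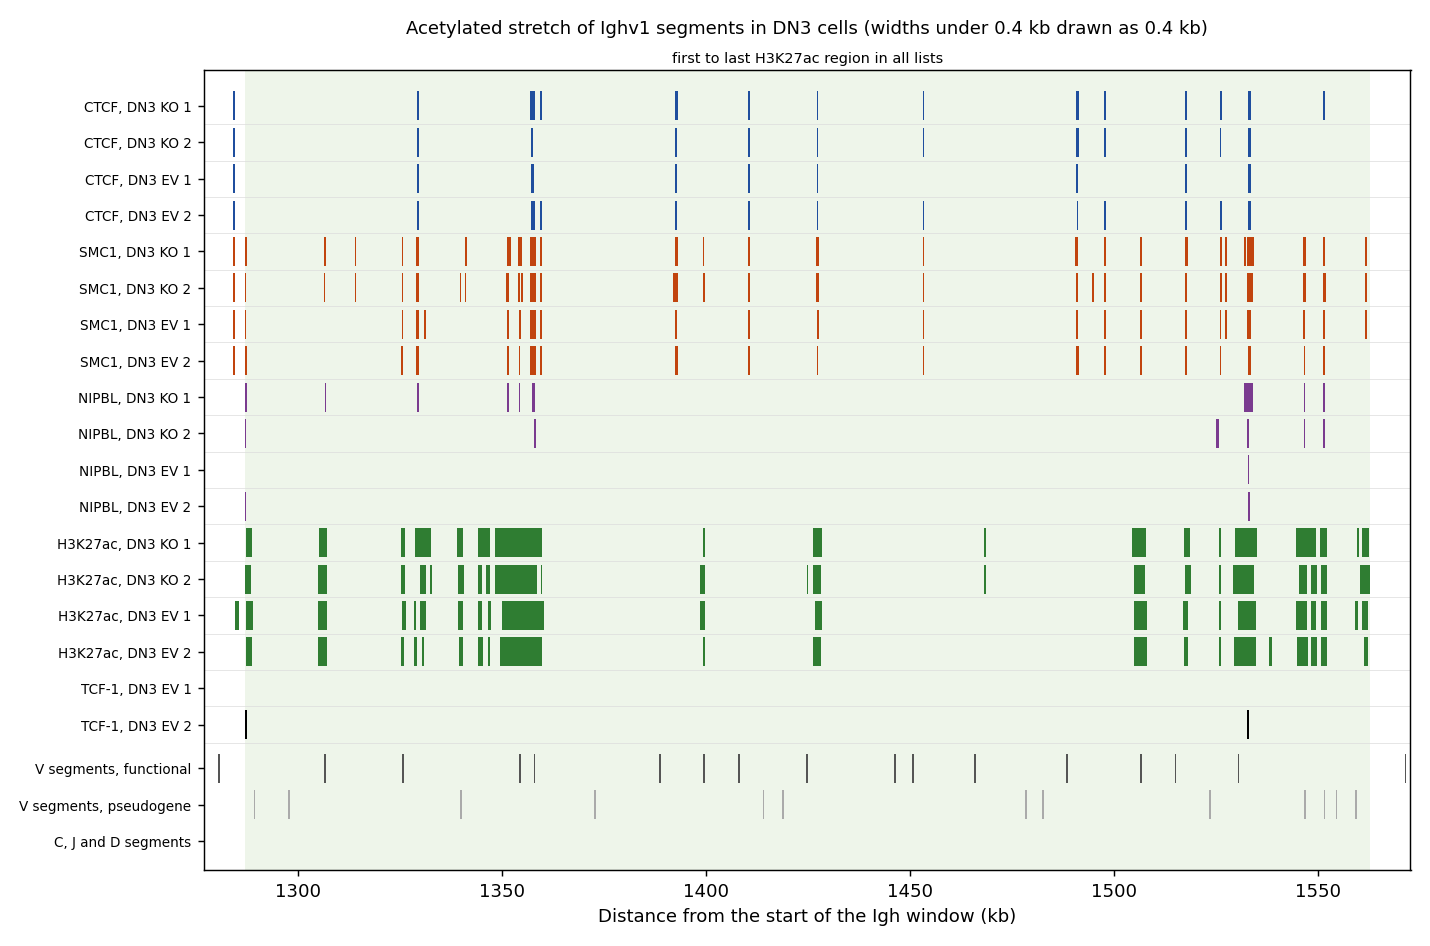
Peaks of each DN3 list in and around the acetylated stretch of Igh, by distance from the start of the Igh window in kb, with V segments in the bottom rows; peaks narrower than 0.4 kb are drawn as 0.4 kb. H3K27ac covers 38.3 to 46.6 kb of the shaded stretch in the 4 lists, and SMC1 rows hold 28 and 28 peaks in KO cells and 22 and 19 in EV cells.

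Loss of TCF-1 in DN3 cells went with more called peaks of every antibody in the windows, in lists that were themselves of unequal length. CTCF had 158 and 147 peaks in KO lists, against 96 and 131 in EV lists. SMC1 had 144 and 163 in KO lists, against 81 and 112 in EV lists. NIPBL had 17 and 9 in KO lists, against 2 and 2 in EV lists, and H3K27ac had 25 and 30 in KO lists, against 24 and 24 in EV lists. For all 4 antibodies the KO lists lay above the EV lists, and the means differed by 39.0 peaks for CTCF, 57.0 for SMC1, 11 for NIPBL and 3.50 for H3K27ac. The exact permutation p was 0.333 for each, the smallest that 2 against 2 lists can give, so none could pass 0.05. The difference was 21.5 peaks for CTCF without EV list 1, 7.00 for NIPBL without KO list 1, and for H3K27ac 6 without KO list 1 and 1 without KO list 2. KO lists of CTCF and SMC1 were also longer genome-wide, with 62353 and 55149 CTCF peaks against 42214 and 53729 in EV lists, and 88886 and 96416 SMC1 peaks against 70438 and 77587. At equal list length the differences were 13.0 peaks for CTCF, 15.5 for SMC1, 3.00 for NIPBL and 4.50 for H3K27ac. Of the regions in either list of a pair, both lists held 83.7% for CTCF and 77.3% for SMC1 in KO cells, against 66.9% for CTCF and 62.2% for SMC1 in EV cells. Genome-wide it was 76.7% for CTCF and 70.5% for SMC1 in KO cells, against 72.4% for CTCF and 63.0% for SMC1 in EV cells.

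For CTCF the share of regions that changed was close to that of the genome. Both KO lists and no EV list held 12 of 167 CTCF regions in the windows (7.19%), against 6.36% genome-wide, and both EV lists and no KO list held 0, against 0.460% genome-wide. The top-ranked KO regions lay near Igkv4-60 (294 and 301 bp wide), over the predicted gene Gm30948 (332 and 272 bp), and near Igkv14-100, Igkv4-53 and Ighv9-4. Their lowest width percentiles over the KO lists were only 14.7 to 24.4. The 4 outside a gene lay 1532 to 14704 bp from the one named, and none of the 5 held an H3K27ac peak. A fibroblast CTCF list held only the Igkv4-53 region among them. The count was 46 without EV list 2, 24 without KO list 2 and 19 without KO list 1, and in EV cells it was 1 without KO list 1 or without EV list 1.

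SMC1 regions of KO cells alone made up a larger share in Igk than in Igh, a difference between the loci that was not tested. Both KO lists and no EV list held 30 of 179 SMC1 regions (16.8%), against 9.26% genome-wide, with 12 of 35 in Igk (34.3%) and 18 of 141 in Igh (12.8%). Both EV lists and no KO list held 0, against 0.969% genome-wide. SMC1 peaks in Igk numbered 28 and 34 in KO lists and 8 and 14 in EV lists, and their relative density was 0.261 and 0.293 in KO lists and 0.0942 and 0.150 in EV lists. All 12 Igk regions held CTCF in a DN3 list and 9 held it in an EV list, against 23.1% with CTCF in an EV list among such SMC1 regions genome-wide. Igk CTCF regions of both lists with SMC1 in both lists were 25 of 32 (78.1%) in KO cells and 7 of 18 (38.9%) in EV cells, where the genome had 87.5% in KO and 84.8% in EV. At equal list length Igk had 6 of 22 SMC1 regions in KO lists alone (27.3%), against 4.41% genome-wide. Without EV list 1, the shorter one, it had 13 of 35 (37.1%), against 13.4% genome-wide, and without KO list 2 it had 13 of 28 (46.4%), against 19.0%. The count was 19 of 34 without KO list 1 (55.9%, against 23.6% genome-wide) and 19 of 35 without EV list 2 (54.3%, against 16.9%). Over all windows the count of 30 was 53 without KO list 1 and 54 without EV list 2, and that of EV cells was 6 without EV list 1 and 1 without KO list 2 or EV list 2.

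The top-ranked SMC1 regions of KO cells were all in Igk. Their lowest width percentiles over the KO lists were 33.8 to 42.8, so each was narrower than the median peak of a list holding it. They lay near Gm5310 (371 and 416 bp wide), Igkv15-97 (359 and 544 bp), Igkv13-84 (382 and 345 bp), Igkv13-85 (354 and 340 bp) and Igkv4-83 (333 and 347 bp). The first pair were 16028 and 14050 bp from the named gene, and the rest 1113 to 2012 bp. The V segments here encode the variable part of the kappa chain, and none of the 5 regions overlapped one.

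NIPBL and H3K27ac changed at few regions. Both KO lists and no EV list held 4 of 20 NIPBL regions, against 5.88% genome-wide, and both EV lists and no KO list held 0, against 0.251% genome-wide. These 4 were over Gm34465 and the pseudogene Ighv1-28, over Ighv1-27, over Ighv1-12, and 2870 bp from Igkv8-23-1. At Gm34465 the peak was 220 and 344 bp wide, with authors' −log10 q-values of 7.48 and 8.07, while SMC1 and H3K27ac were present there in all 4 lists. The 3 Igh regions all had H3K27ac and SMC1 in every list, and the Igk region had neither. Both marks are usual at such NIPBL regions genome-wide. There 86.7% had H3K27ac in both KO lists, 90.9% had SMC1 in both KO lists and 78.9% had SMC1 in both EV lists. NIPBL lists held 23951 and 14107 peaks in KO cells and 9206 and 15232 in EV cells, so KO list 1 was the longest. The count of 4 was 7 without KO list 1 and 14 without KO list 2.

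H3K27ac was in both KO lists and no EV list at 5 of 32 regions (15.6%), against 4.83% genome-wide, and in both EV lists and no KO list at 1 (3.12%), against 7.99% genome-wide. The KO regions were over Ighv1-41 (776 and 730 bp wide) and Ighv1-2, 4717 bp from Ighv1-34 (233 and 256 bp), 2040 bp from Ighv1-20 and 1106 bp from Ighv10-2. Only the region near Ighv1-20 lies inside the acetylated stretch. The EV region lay 11836 bp from Ighv12-3 (700 and 674 bp), and CTCF was there in all 4 DN3 lists. Above the median q-value of each list the counts were 1 in KO and 0 in EV cells. Without KO list 1 they were 9 in KO and 2 in EV cells, and the EV count was 3 without EV list 1 and 2 without EV list 2.

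Induction of TCF1 in fibroblasts went with more called CTCF peaks in the windows, but not at equal list length. Induced lists had 55 and 55 peaks, against 23 and 28 in untreated lists, a difference of 29.5 (exact permutation p = 0.333, the smallest possible). Induced lists were also far longer genome-wide, with 68306 and 64645 peaks against 38369 and 41236 in untreated lists. At equal list length the difference was −0.500 peaks. Relative density over all windows, which also allows for list length, was 0.344 and 0.364 in induced lists and 0.256 and 0.290 in untreated lists. The 2 ways of allowing for length thus gave different answers. Both induced lists and no untreated list held 19 of 62 regions (30.6%), against 21.2% genome-wide, and both untreated lists and no induced list held 0, against 0.0504% genome-wide. At equal list length the counts were 1 in induced and 3 in untreated cells, and the untreated count was 2 without untreated list 1.

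The 19 regions of induced fibroblasts were sites that DN3 cells also had, as were most fibroblast CTCF regions of the windows. All 19 were held by a DN3 CTCF list, against 56.6% of such regions genome-wide, and 13 by all 4, against 21.7%. In the windows 59 of all 62 fibroblast CTCF regions were in a DN3 list, among them all 17 regions of every fibroblast list. The top-ranked was 7045 bp from Gm8872 in Igk (819 and 883 bp), followed by a site 2802 bp from Igkv17-127 (361 and 341 bp), Ighv4-1 (367 and 334 bp), Ighv2-2 (521 and 333 bp) and a site 9095 bp from Gm4873 (322 and 392 bp). Ighv4-1 and Ighv2-2, both functional, had the peak on the V segment. At the sites near Gm8872 and Igkv8-19 the SMC1 lists of both fibroblast conditions also had a peak. Near Igkv17-127 and at Ighv2-9-1 the untreated SMC1 list alone had one, and both are among the SMC1 regions of untreated cells alone. Cohesin was thus called at these places without induction. Further V segments under a CTCF peak of induced fibroblasts alone, named after their values were seen, included Ighv11-2, Ighv5-17, Ighv2-9-1 and Ighv2-5.

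Fibroblast SMC1 had 1 list per condition, so it has no replicate check and no test. The induced list had 17 peaks in the windows, against 26 in the untreated list, and lists held 95293 peaks in induced and 105033 in untreated cells. No region was in the induced list alone, against 11.9% genome-wide, and 9 of 26 (34.6%) were in the untreated list alone, against 20.1% genome-wide. These 9 included Ighv11-1 (289 bp), Ighv2-6-8 (284 bp), Ighv5-15 (271 bp), Ighv2-9-1 (259 bp) and a site near LOC105246083 in Igl (252 bp). All 9 lay in CTCF regions of all 4 DN3 lists, against 6.73% of such regions genome-wide. Of the 17 SMC1 regions in both fibroblast lists, 15 (88.2%) did so too, so this was not particular to the 9. Above the median width of the lists 0 of the 9 were left. Of CTCF regions in both lists of a condition, 17 of 50 (34.0%) met SMC1 in induced cells and 15 of 17 (88.2%) in untreated cells, against 83.1% in induced and 97.8% in untreated cells genome-wide.

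TCF-1 itself was nearly absent from the called peaks of these loci. Of the DN3 EV lists, list 1 had none in the windows and list 2 had 2, among 4978 and 5356 peaks genome-wide. The first, chr12:114545190-114545419, lay at the Ighv10-4 edge of the acetylated stretch, in a merged region with H3K27ac and SMC1 in all 4 lists. The second, chr12:114790674-114791123, lay in the acetylated region of Ighv1-26 and met its CTCF, SMC1 and NIPBL peaks. Neither was in both TCF1 antibody lists, so both are calls of a single list. The fibroblast list, with 39489 peaks genome-wide, also had 2, and both were over constant region genes. One covered all 320 bp of Igkc (chr6:70726435-70726754), with 89.9% of the peak's 356 bp on that gene. The other, of 209 bp, lay inside Ighg1, a constant region of IgG. Neither place had a DN3 TCF1 antibody peak, and NIPBL of KO list 2 also had a peak in Igkc, at an authors' −log10 q-value of 1.07, near the lowest of its list.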

How the data were processed

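Chromatin was fixed with 1% formaldehyde and sequenced in read pairs (38 and 37 bp), per the labels' protocols. The submitters' processing notes name Bowtie2, MACS2, bedtools and the mm10 build. Tool versions, settings and any input controls were not given in the sources used here. The 17 deposited lists of CTCF, SMC1 and TCF1 antibodies held peak positions only, so width stood in for rank. The 8 deposited lists of NIPBL and H3K27ac also held the authors' score, fold enrichment, −log10 p-value and −log10 q-value per peak, used only to describe or rank peaks within a list. No deposited −log10 q-value was under 1.00.

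Cell line, treatment, antibody and replicate number came from the labels. Peaks were merged at a gap of 0 bp over all lists, and per antibody and line for each comparison, and an overlap of 1 bp placed a region in a list. Regions called in both lists of one condition and in none of the other were counted and set beside the same share over the genome. Numbers of peaks and relative densities were compared by exact permutation of lists. Genes and V segments came from RefSeq genes of GRCm38.p6, a table with no strand, whose biotypes gave functional and pseudogene segments. The side facing the D segments was taken as that of lower coordinates in Igh. Regions were named by the nearest gene or segment.

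Named were up to 10 V segments per locus within 1 kb of a CTCF region of all 8 lists, up to 5 changed regions per comparison and direction by their lowest percentile rank, the C, J and D segments and other genes under a peak, and segments near TCF1 antibody peaks. The members, gene lists and stretches were chosen with earlier results of these data known. Alternatives were an overlap of 50%, only peaks at or above the median of their list, equal list length (the top peaks by rank, as many as the shortest list held), merging across 500 bp, leaving out each list, and a replicate block. The searched motifs differ from the plan, which asked for a genome.

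Computation used python 3.11.15, numpy 2.4.6, pandas 2.3.3, matplotlib 3.10.9 and bedtools 2.31.1. On simulated data with 20000 regions, 200 and 400 planted regions of a comparison of 2 against 2 lists were all recovered, and bedtools gave the same 55413 regions as the code used here for the EV CTCF lists.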

Additional observations from a re-analysis of the deposited data

Results flagged for a closer look

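CTCF peaks in the windows were more numerous in both conditions that differ from the usual state of the line, although TCF-1 was removed in one and added in the other. In DN3 cells, KO lists had a mean of 39.0 more CTCF peaks than EV lists, with 21.5 to 56.5 when each list was left out in turn. In fibroblasts, TCF1 induced lists had a mean of 29.5 more than untreated lists. Both KO lists lay above both EV lists, and both induced lists lay above both untreated lists. The direction is thus opposite in the sense of TCF-1 present against absent, and this difference between the lines was not tested. The longer lists were those with more peaks in both cases. At equal list length the fibroblast difference was −0.500 peaks while that of DN3 cells was 13.0. Relative density over all windows was 0.344 and 0.364 in induced lists, against 0.256 and 0.290 in untreated lists. In DN3 cells it was 1.08 and 1.14 in KO lists, against 0.972 and 1.04 in EV lists.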

How the results depend on the processing

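With only peaks at or above the median of their list, regions called in both KO lists alone were 5 for CTCF, 8 for SMC1, 2 for NIPBL and 1 for H3K27ac, and H3K27ac regions of EV lists alone were 0. CTCF regions of induced fibroblasts alone were 6, SMC1 regions of untreated fibroblasts alone were 0, and CTCF regions in every list were 2. CTCF spacing in DN3 cells was 33.1 kb over Igh and 190 kb over Igk V segments, and the Igk density difference was 0.0962 (exact permutation p = 0.114). At equal list length, CTCF regions were 6 in KO lists alone and 2 in EV lists alone, SMC1 regions 11 and NIPBL regions 2 in KO lists alone. Fibroblast CTCF regions were 1 in induced and 3 in untreated lists alone, SMC1 regions of the induced list alone were 2, and CTCF spacing over Igh in DN3 cells was 25.8 kb. The only reversed value was the fibroblast CTCF peak difference, −0.500 at equal list length (exact permutation p = 1.00). The cause of these changes was not tested. Of 30 named changed regions, 30 kept their class at 50% overlap and with merging across 500 bp, 19 at equal list length and 3 above the median of their list.

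Leaving out each list in turn gave 15 to 46 CTCF regions of KO lists alone and 0 to 1 of EV lists alone, 36 to 54 and 0 to 6 for SMC1, 4 to 14 of KO lists alone for NIPBL, and 5 to 9 and 1 to 3 for H3K27ac. Fibroblast CTCF regions of untreated lists alone were 0 to 2. A region of such a class keeps it when a list is left out, so these counts could hardly fall. Peak differences between KO and EV lists were 21.5 to 56.5 for CTCF, 41.5 to 72.5 for SMC1, 7 to 15 for NIPBL and 1 to 6 for H3K27ac. Igh CTCF density differences between lines were 1.33 to 1.42. Fibroblast SMC1, with 1 list per condition, allowed no such step, and the overlap of 50% gives no other spacing.

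With the replicate number as a block, the peak differences were unchanged at 39.0, 57.0, 11 and 3.50 in DN3 cells and 29.5 in fibroblasts, each with an exact sign-flip permutation p of 0.5, the smallest 2 pairs allow. Lists of the same number did not deviate together (correlations of −0.039 to 0.061 over 5 comparisons), so the numbers were not taken as pairs. Read depth is unknown, so a region that was not called sets no limit on binding there.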
